A study of Mus musculus with 5 samples.

Results

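The 7 genes described here, Insig1, Hmgcs1, Idi1, Fdps, Fdft1, Sqle and Lss, were taken by symbol from the count tables, which list 18384 genes in all, and each was listed on all 5 plates. 6 encode enzymes of cholesterol synthesis and Insig1 encodes a protein of the sterol feedback loop. The samples were organoids of the MMTV-PyMT mouse mammary tumour model, in which the mouse mammary tumour virus promoter drives the polyoma middle T oncogene in mammary epithelium. All carried this transgene and had been cultured in BME, a basement membrane extract gel, with FGF2. They were then re-embedded for 5 days either in BME, which the labels mark as not permissive for invasion (3 plates, replicates 1, 2 and 3), or in Collagen I, a fibrillar gel marked as permissive (2 plates, replicates 1 and 3). Live single cells were sorted into plates of 384 wells and sequenced by SORT-seq, which counts molecules at their 3' ends, so that 1 plate was 1 replicate. How many animals or cultures the plates came from is not given in the sources used here, and the p-values measure only the spread between plates.

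Of 1920 wells, 1500 passed the filters (251 to 319 per plate). Wells were put in classes by 2 sums, neither of which contains a described gene. Basal wells held at least 5 counts of Krt5, Krt14 and Krt17 per 10000 counts (88 to 138 wells per plate), and non-basal wells held fewer than 2 (133 to 190). Cycling wells held at least 10 counts of 20 mitotic genes per 10000 (147 to 169 wells per BME plate, 48 and 66 in Collagen I), and non-cycling wells fewer than 5. The sum of the 6 basal markers was 2555 to 3851 CPM (counts per 1000000 summed counts) in basal wells and 148 to 338 in non-basal wells. This sum includes Krt5, Krt14 and Krt17, which define the classes, so the gap follows in part from the rule. The rest are Trp63, Cdh3 and Itga6. All 6 were higher in basal wells, Trp63 by 3.12 log2 units (edgeR adjusted p = 1.36e-09). The median well held 21739 to 25603 counts on the BME plates but 5106 and 2749 on the Collagen I plates, where ribosomal Rn45s took 7.53% and 8.45% of the counts against 1.64% to 2.77% in BME. In wells of up to 2000 counts 1 keratin count was enough for the basal class. More than 2000 counts were held by 81 of 138 basal wells in Collagen I replicate 3 and 69 of 88 in replicate 1. On the BME plates these were 85 of 96, 92 of 114 and 80 of 92. A single flow cell held the BME plates, while the Collagen I plates were run on separate flow cells, so matrix, depth and sequencing run cannot be told apart.

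Cells make cholesterol from acetyl-CoA through mevalonate and squalene. When sterol is plentiful in the endoplasmic reticulum, INSIG proteins hold SCAP and its cargo, the SREBP transcription factors, in that membrane. When sterol falls, SCAP carries SREBP to the Golgi, where a pair of proteases releases the active factor, and this raises transcription of most enzymes of the pathway and of Insig1 itself. In mammary epithelium the same factors are known for their part in making milk lipid. Among the described enzymes, HMGCS1 makes HMG-CoA, IDI1 isomerises the activated isoprene unit, FDPS makes farnesyl diphosphate, FDFT1 (squalene synthase) joins farnesyl units to squalene, SQLE oxidises squalene and LSS closes the first sterol ring.

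RefSeq promoter windows (GRCm38.p6, 250 bases before to 50 after the transcription start) were matched for 4 of the 7 genes. They are shown because these genes share a known regulator and rose and fell together from well to well. Whether that regulator had a part in this was not tested. Capitals mark the core of a sterol regulatory element (TCACNCCAC) and the CCAAT box bound by NF-Y, read on either strand, so that a box on the other strand appears as ATTGG. The windows lie at chr5:28071162-28071461 (Insig1), chr13:119690101-119690400 (Hmgcs1), chr13:8885356-8885655 (Idi1) and chr10:76531355-76531654 (Lss), all on the plus strand.
Insig1: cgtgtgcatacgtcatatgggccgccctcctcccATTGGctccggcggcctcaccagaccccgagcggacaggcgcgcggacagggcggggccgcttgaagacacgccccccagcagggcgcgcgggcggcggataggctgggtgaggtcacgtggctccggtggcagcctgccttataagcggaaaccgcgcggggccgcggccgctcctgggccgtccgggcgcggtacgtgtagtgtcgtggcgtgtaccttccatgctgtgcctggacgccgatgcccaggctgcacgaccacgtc
Hmgcs1: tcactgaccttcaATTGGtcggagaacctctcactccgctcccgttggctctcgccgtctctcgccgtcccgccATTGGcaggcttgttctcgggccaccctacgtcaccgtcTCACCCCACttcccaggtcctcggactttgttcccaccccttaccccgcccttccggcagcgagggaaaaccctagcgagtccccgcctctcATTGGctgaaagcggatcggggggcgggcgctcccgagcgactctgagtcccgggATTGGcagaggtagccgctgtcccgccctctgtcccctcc
Idi1: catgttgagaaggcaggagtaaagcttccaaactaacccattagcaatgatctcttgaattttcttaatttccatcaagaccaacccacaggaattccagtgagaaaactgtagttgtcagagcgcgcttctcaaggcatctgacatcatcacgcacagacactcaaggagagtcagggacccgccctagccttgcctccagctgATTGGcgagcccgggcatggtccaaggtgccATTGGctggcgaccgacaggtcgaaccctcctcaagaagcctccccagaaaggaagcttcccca
Lss: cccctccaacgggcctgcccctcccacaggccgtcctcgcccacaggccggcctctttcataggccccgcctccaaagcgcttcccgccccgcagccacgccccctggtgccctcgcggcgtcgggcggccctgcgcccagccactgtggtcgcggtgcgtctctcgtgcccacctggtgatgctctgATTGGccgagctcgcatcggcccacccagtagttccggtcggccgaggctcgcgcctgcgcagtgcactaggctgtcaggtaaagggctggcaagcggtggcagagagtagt
The Hmgcs1 window held 1 sterol element core, which 1.24% of all 32851 promoter windows hold, and 4 CCAAT boxes. At least 1 CCAAT box was present in 37.4% of all windows and at least 4 in 1.06%. Insig1 and Lss had 1 CCAAT box each and Idi1 had 2. The absence of the core from the other windows says only that these letters are not in them.

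In GENCODE vM21 (GRCm38), Insig1 spans chr5:28071363-28078662 and Sqle spans chr15:59315077-59331192, both on the plus strand and without an overlapping gene. Hmgcs1 (chr13:119690379-119708260), Idi1 (chr13:8885501-8892451) and Lss (chr10:76531588-76557138) each overlap 1 gene on the opposite strand, Gm48342, Gm48574 and 4930483K19Rik. Fdps (minus strand, chr3:89093588-89101959) overlaps Gm43738 and Gm22935 on its own strand. Fdft1 (minus strand, chr14:63145150-63179578) overlaps Ctsb, the cathepsin B gene, on the other strand. Whether counting used strand is not given in the sources used here, so reads from these pairs cannot be told apart. Idi2, the neighbouring paralog of Idi1, had 13 counts over all wells against 6178 for Idi1.

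The first question was whether the genes differed between organoids in Collagen I and in BME. Insig1 was about 4 times as high in Collagen I in basal, non-basal and cycling wells, the 3 classes tested. Hmgcs1 and Fdps were 1.58 to 2.07 times as high in them, and Fdft1 was higher in basal and non-basal wells. Idi1, Sqle and Lss did not pass the test in any of these 3 classes. Non-cycling wells were not tested between the matrices. Their mean level was 46.7 CPM in BME and 234 CPM in Collagen I for Insig1, and 104 and 172 CPM for Idi1. For Sqle it was 124 and 200 CPM, and for Lss 59.7 and 74.1 CPM. In basal wells 4 of the 7 genes rose, against 10.8% of all 10296 genes tested. In non-basal wells the count was 4 of 7 against 14.1% of 11076 genes, and in cycling wells 3 of 7 against 4.94% of 10985. None of the 7 fell. With either Collagen I plate left out, fewer of the 7 passed in each of these classes, and fewer of all genes tested rose as well.

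Insig1, the feedback protein, stood at 38.7, 41.0 and 32.6 CPM in basal wells of the 3 BME plates, and at 156 and 152 CPM in those of Collagen I replicates 1 and 3. The non-basal level was 64.2, 77.9 and 77.4 CPM on the BME plates against 304 and 278 CPM on the Collagen I plates. In cycling wells the levels were 61.8, 70.2 and 70.0 CPM against 328 and 302 CPM. The plates of the matrices were far apart in every class, and the lowest Collagen I plate was above the highest BME plate. The log2 fold change was 2.08 ± 0.21 (SE, edgeR adjusted p = 2.38e-07) in basal wells, 2.02 ± 0.15 (adjusted p = 9.72e-08) in non-basal wells and 2.14 ± 0.17 (adjusted p = 7.46e-07) in cycling wells. It passed under every alternative run, with a range of 1.92 to 2.57. With each well thinned to 2000 counts, Insig1 was detected in 8.11% to 9.80% of wells on the BME plates and in 31.2% and 32.8% on the Collagen I plates. Without thinning these shares, at unequal depth, were 52.5% to 59.3% and 55.0% and 40.7%.

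Hmgcs1, the first enzyme of the described set along the pathway, had 239, 207 and 226 CPM in basal wells in BME and 449 and 354 CPM in Collagen I. In non-basal wells it had 257, 243 and 232 CPM against 523 and 405 CPM, and in cycling wells 300.5, 276 and 283 CPM against 674 and 520 CPM. In each class both Collagen I plates exceeded every BME plate, replicate 1 higher than replicate 3. The log2 fold change was 0.88 ± 0.17 in basal (edgeR adjusted p = 0.000915), 0.95 ± 0.15 in non-basal (adjusted p = 0.000188) and 0.98 ± 0.16 in cycling wells (adjusted p = 0.00123). Without Collagen I replicate 1 it was 0.71 in basal wells (adjusted p = 0.0543) and 0.79 in cycling wells (adjusted p = 0.0798).

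Fdps, which makes the farnesyl diphosphate that sterol and protein prenylation draw on, was at 140, 203 and 187 CPM in basal wells in BME and at 421 and 293 CPM in Collagen I. Its non-basal levels were 203, 323 and 276 CPM against 427 and 406 CPM, and its cycling levels 207, 305 and 287 CPM against 531 and 449 CPM. The groups did not overlap in any of these classes, although the BME plates varied more for this gene than for Hmgcs1. The log2 fold change was 1.05 ± 0.19 (edgeR adjusted p = 0.000407) in basal, 0.66 ± 0.18 (adjusted p = 0.0104) in non-basal and 0.80 ± 0.18 (adjusted p = 0.0112) in cycling wells. Leaving out Collagen I replicate 1 moved the adjusted p to 0.0608, 0.122 and 0.198, and leaving out replicate 3 moved it to 0.0903 in non-basal and 0.110 in cycling wells.

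Fdft1, which commits farnesyl units to sterol, was at 178, 112 and 144 CPM in basal wells in BME and at 223 and 229 CPM in Collagen I. In non-basal wells it was at 212, 159 and 164 CPM against 264 and 269 CPM. The groups did not overlap in either class, with BME replicate 1 the nearest to Collagen I. The log2 fold change was 0.69 ± 0.21 in basal (edgeR adjusted p = 0.0225) and 0.60 ± 0.17 in non-basal wells (adjusted p = 0.0139). In basal wells the call was lost in 5 of 14 alternatives, among them DESeq2 (adjusted p = 0.0567) and the fits without BME replicate 2 (0.0784), Collagen I replicate 1 (0.127) or replicate 3 (0.200). In non-basal wells it was lost in thinned wells (0.46, adjusted p = 0.126) and without BME replicate 3 (0.0554), Collagen I replicate 1 (0.0998) or replicate 3 (0.113). In cycling wells the levels were 231, 159 and 181 CPM against 287 and 261 CPM, with a log2 fold change of 0.44 ± 0.20 that did not pass (adjusted p = 0.197).

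The remaining enzymes did not pass. Sqle, which carries out the first oxygen-dependent step, had 178, 161 and 136 CPM in basal wells in BME and 233 and 168 CPM in Collagen I, and the groups overlapped. In non-basal wells it had 157, 148 and 142 CPM against 193 and 196 CPM, without overlap, and a log2 fold change of 0.40 ± 0.15 (edgeR adjusted p = 0.0566). In that class 3 of 14 alternatives put it past the threshold, the lowest adjusted p (0.00503) being that with cycling wells left out, where the log2 fold change was 0.79. Idi1 had 144, 126 and 143 CPM in basal wells in BME and 206 and 122 CPM in Collagen I, so that the 2 Collagen I plates lay on either side of BME. The same held in non-basal wells (201, 221 and 208 CPM against 268 and 177 CPM). Its log2 fold changes were 0.30 ± 0.21, 0.12 ± 0.16 and 0.32 ± 0.19 in basal, non-basal and cycling wells (adjusted p from 0.312 to 0.639). Lss had 63.4, 65.3 and 62.0 CPM in basal wells in BME and 57.0 and 61.2 CPM in Collagen I. Its log2 fold changes were -0.06 ± 0.25, 0.05 ± 0.22 and 0.24 ± 0.24 (adjusted p from 0.580 to 0.887), with a sign that depended on the setting in basal and non-basal wells.

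**Figure D1:**
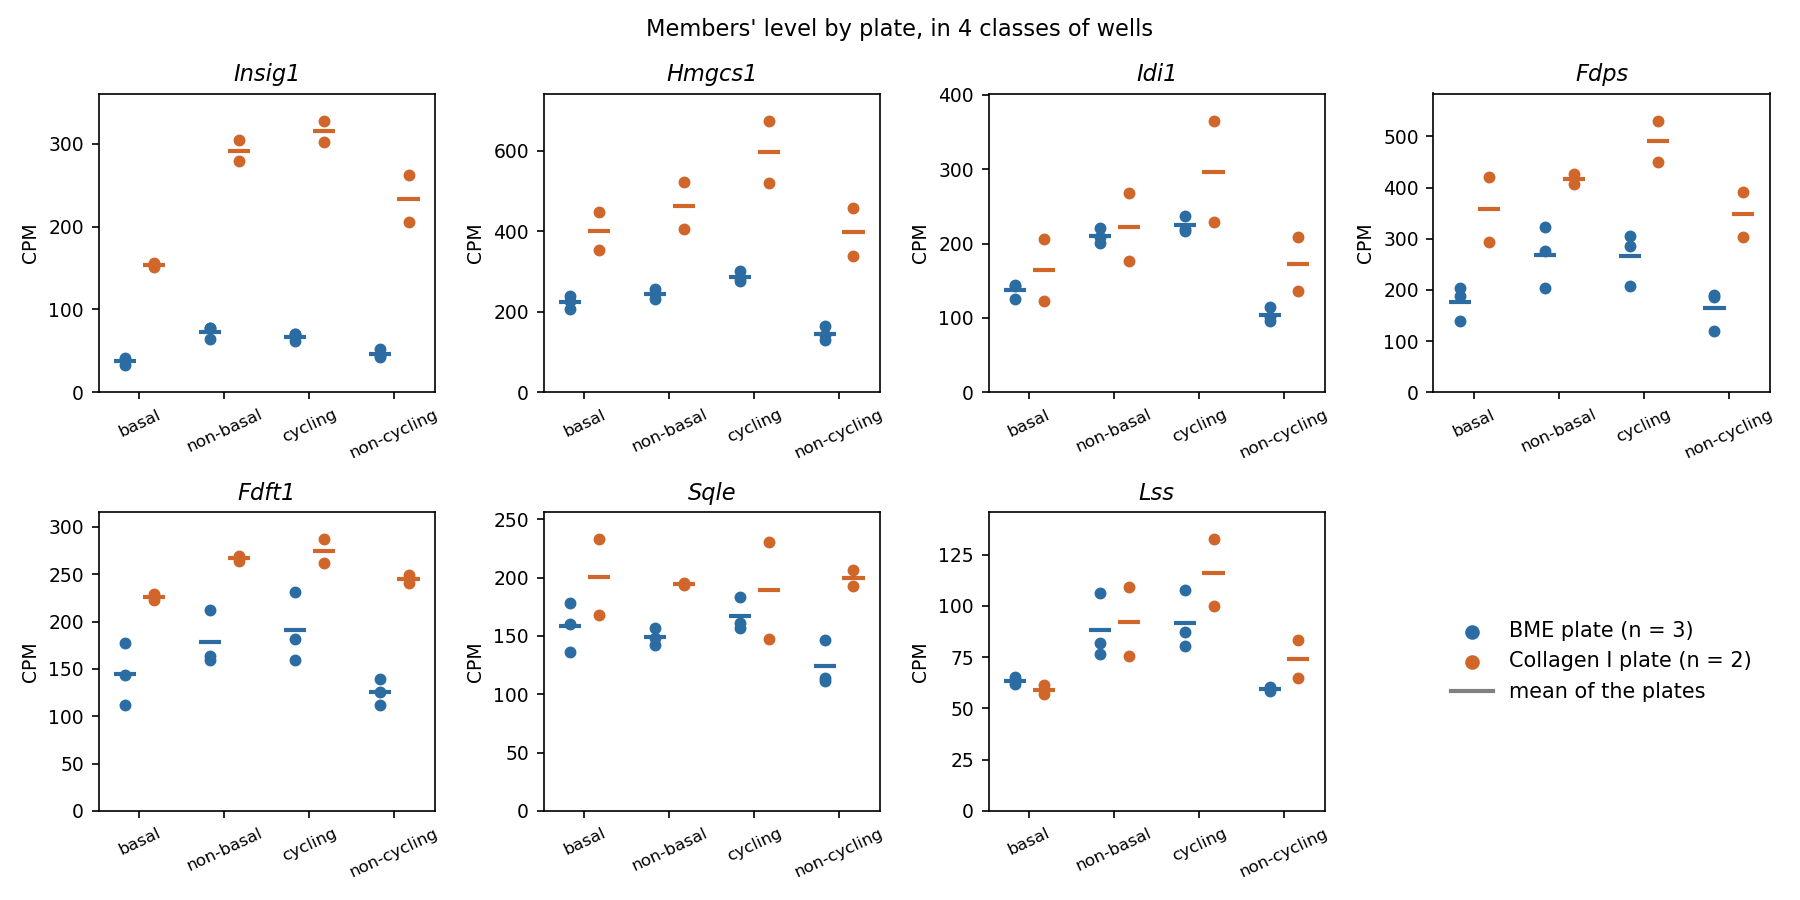
Level of each described gene in CPM (y axis, from 0) in basal, non-basal, cycling and non-cycling wells (x axis), 1 point per plate (3 BME, 2 Collagen I) with a bar at the mean. The Insig1 points of the matrices are far apart in every class (38.7, 41.0 and 32.6 against 156 and 152 CPM in basal wells), while those of Idi1 and Lss overlap in basal or non-basal wells.

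**Figure D2:**
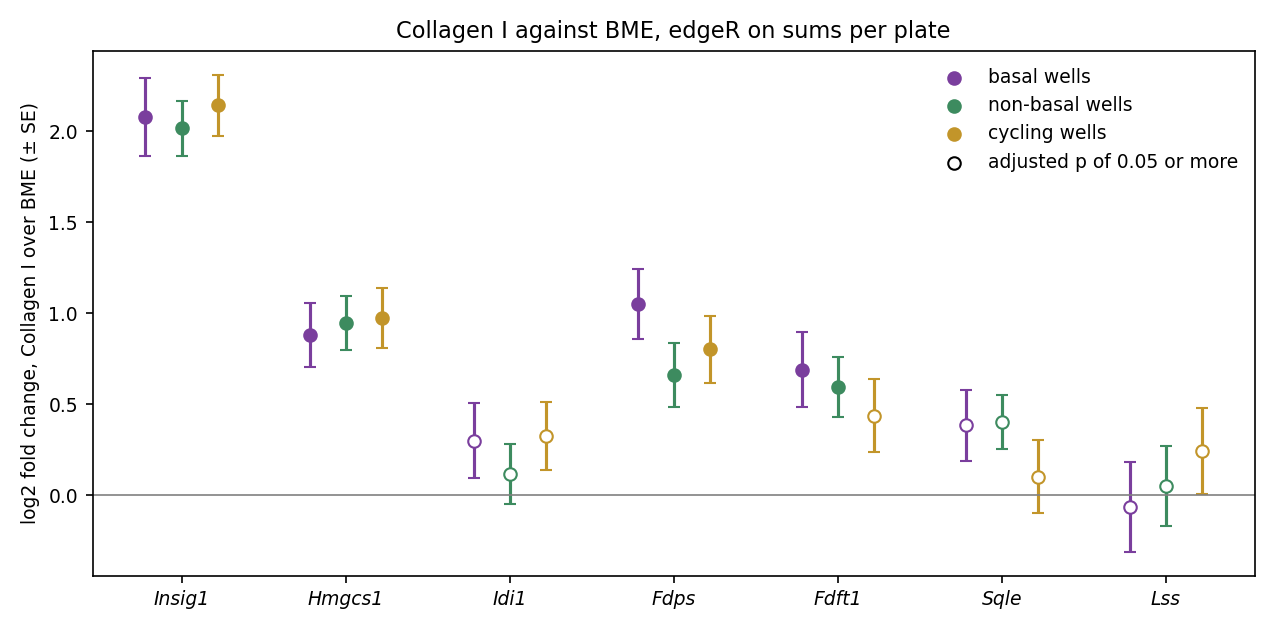
Log2 fold change of Collagen I over BME (y axis, error bars ± SE, edgeR) for the 7 genes (x axis) in basal, non-basal and cycling wells, with open points where the adjusted p was 0.05 or more. Insig1 lies at 2.02 to 2.14 and the filled enzyme points lie between 0.60 and 1.05.

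The test of the difference itself found no gene of the 7 whose Collagen I effect differed between basal and non-basal wells (adjusted p of 0.295 or more by edgeR), where 4.29% of 10862 genes passed. 1 of the 7, Fdps, was under an unadjusted p of 0.05 by edgeR (difference 0.33 ± 0.16 log2 units, higher in basal wells) and 0 of 7 were by DESeq2. For Insig1 the difference was 0.01 ± 0.18 log2 units. An adjusted p above the threshold does not show that the effects are alike, and the SE of these differences was 0.14 to 0.28.

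Summed over the 7 genes, basal wells held 981, 914 and 930 CPM in BME and 1745 and 1379 CPM in Collagen I. Non-basal wells held 1200, 1250 and 1182 CPM against 2055 and 1840 CPM, and cycling wells 1311, 1265 and 1306 CPM against 2515 and 2041 CPM. Both Collagen I plates were above every BME plate in each class, and the ratio of the means was 1.66, 1.61 and 1.76. In the exact two-sided permutation test of these sums over the plates p was 0.2, the smallest that 3 plates against 2 allow here. The share of Insig1 also differed. For every 100 counts of the 6 enzymes, basal wells held 4.11, 4.70 and 3.63 counts of Insig1 in BME and 9.83 and 12.4 in Collagen I. Non-basal wells held 5.65, 6.64 and 7.01 against 17.4 and 17.8. The ratio of the means was 2.68 in basal, 2.74 in non-basal and 2.94 in cycling wells, with no overlap between the matrices (exact two-sided permutation p = 0.2). This ratio does not depend on the scaling of the plates. With wells thinned to 2000 counts it was 2.94, 3.33 and 3.41. The basal value rests on few counts, as the thinned basal sums held 7, 2 and 6 counts of Insig1 on the BME plates. Their shares were 5.30, 1.39 and 4.26 per 100 enzyme counts, against 9.17 and 12.3 on the Collagen I plates.

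**Figure D3:**
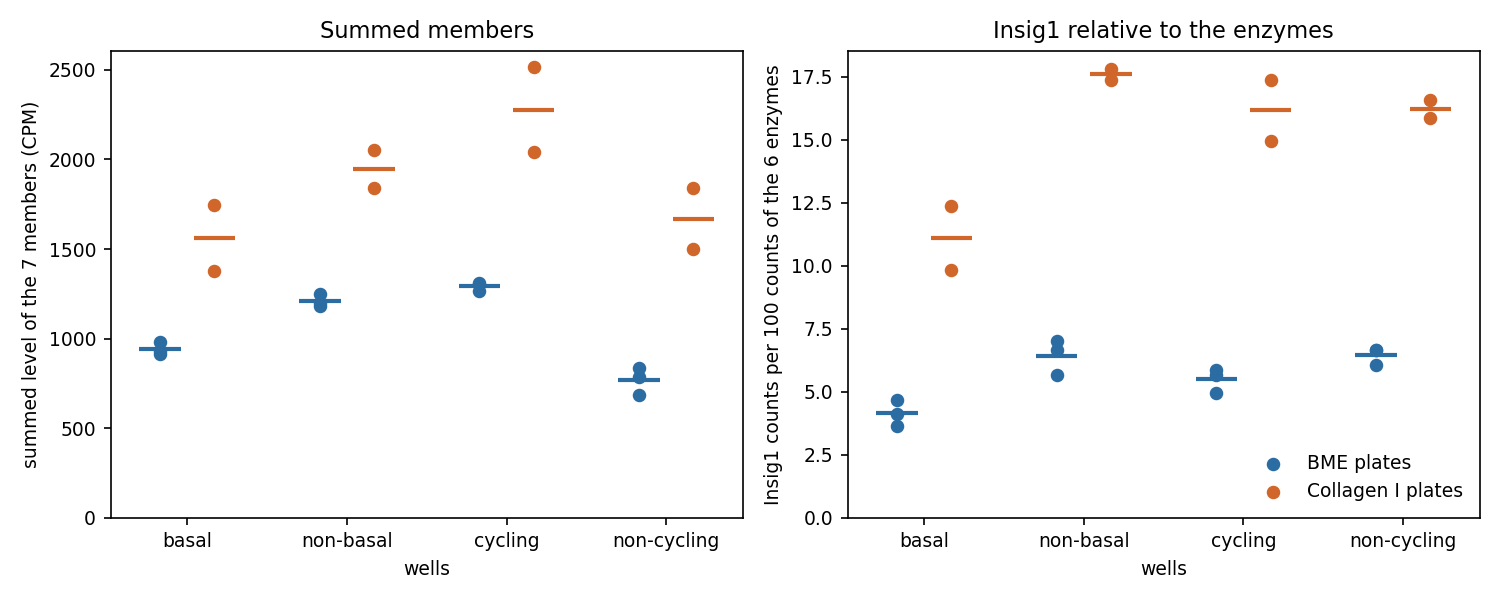
Left, summed level of the 7 genes in CPM, and right, Insig1 counts per 100 counts of the 6 enzymes (y axes, from 0), in 4 classes of wells (x axes), 1 point per plate with a bar at the mean. Both Collagen I plates exceeded every BME plate in every class in both panels, and in basal wells the share of Insig1 is 9.83 and 12.4 against 3.63 to 4.70.

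Other RNA moved with the matrix in the same wells. The summed luminal markers (Krt8, Krt18 and 6 others) stood at 1151 to 1262 CPM in basal wells in BME and at 3532 to 3795 CPM in Collagen I, and at 2441 to 2807 CPM against 3182 to 3197 CPM in non-basal wells. The summed fibroblast markers stood at 23.5 to 35.3 CPM in basal wells in BME and at 71.9 and 418 CPM in Collagen I, most of it Col1a1. Macrophage, endothelial and adipocyte markers were each below 10 CPM in every class and plate. Cycling wells were fewer in Collagen I (33 of 226 basal wells against 121 of 302 in BME, and 69 of 277 non-basal wells against 309 of 537). The part of these in the results was not tested. With cycling wells left out, the sum of the 7 genes gave a log2 ratio of 0.95 in place of 0.73 in basal wells and of 0.87 in place of 0.69 in non-basal wells. The log2 ratio of the Insig1 share was then 1.09 in place of 1.42 in basal wells and 1.33 in place of 1.45 in non-basal wells, and the log2 fold change of Insig1 was 1.94 and 2.14.

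The other 15 enzymes of the pathway, from a fixed list, gave 8 higher and 0 lower in basal wells, 6 higher and 1 lower in non-basal wells and 5 higher and 0 lower in cycling wells. Of all genes tested, 10.8%, 14.1% and 4.94% were higher in these classes, and 13.9% were lower in non-basal wells. The median log2 fold change of the 15 enzymes was 0.60, 0.41 and 0.45, against -0.03, -0.03 and -0.08 over all genes tested and 0.69, 0.60 and 0.44 over the 7 described genes. Pmvk, a kinase of the mevalonate steps, rose by 1.58 ± 0.21 log2 units in basal and 1.32 ± 0.18 in non-basal wells. Msmo1, which demethylates the sterol ring, and Dhcr7, of the last steps, rose in basal wells (1.19 ± 0.18 and 1.39 ± 0.30), the latter not without Collagen I replicate 1 (adjusted p = 0.320). Mvd and the sterol reductase Tm7sf2 rose in non-basal wells (1.23 ± 0.20 and 1.83 ± 0.25). The 1 enzyme that fell was Lbr, a sterol reductase that is also a receptor of the nuclear lamina (-0.69 ± 0.24 in non-basal wells, edgeR adjusted p = 0.0408). Lbr did not pass there without cycling wells, where 9 of the 15 rose and 0 fell, or in thinned wells, with 4 and 0. Of all genes tested in non-basal wells, 1141 of 9745 rose without cycling wells and 624 of 4681 rose in thinned wells.

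**Figure D4:**
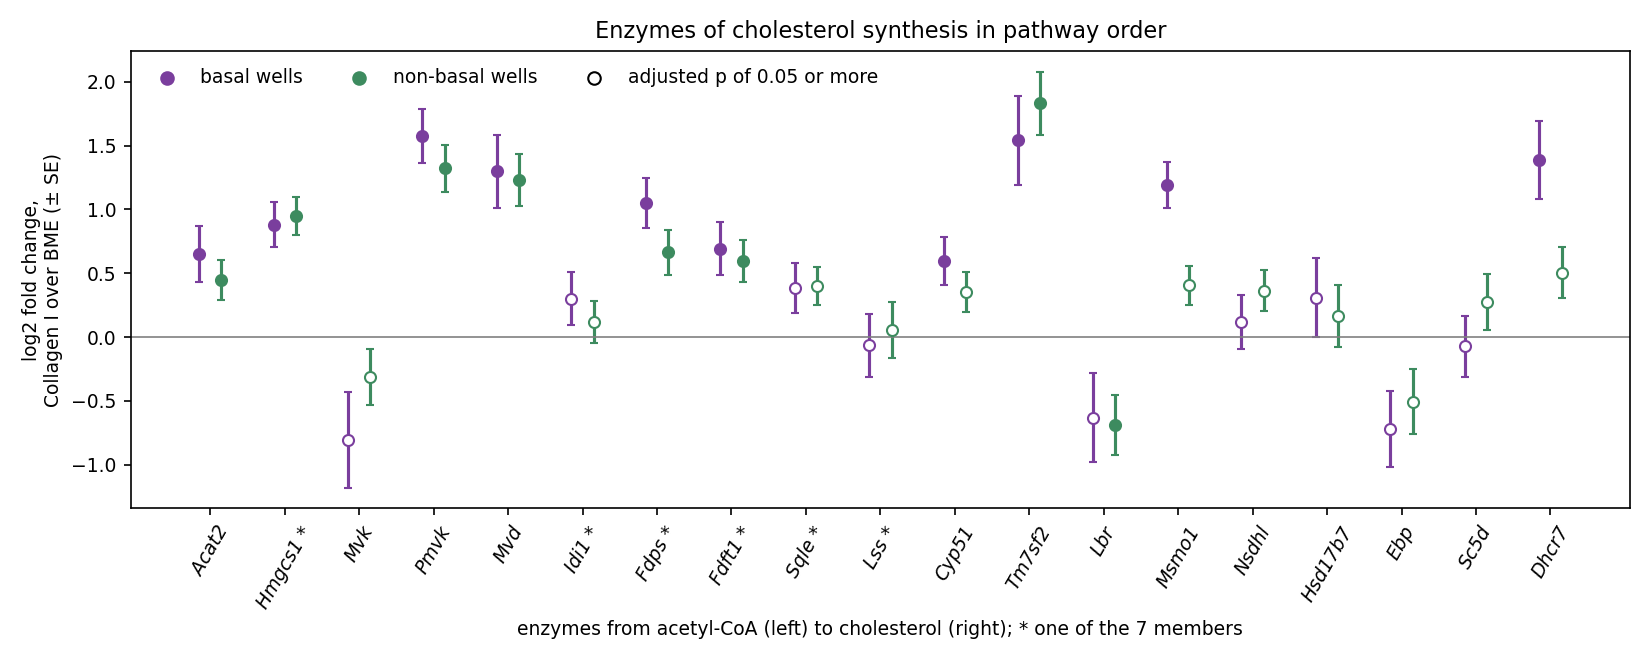
Log2 fold change of Collagen I over BME (y axis, error bars ± SE, edgeR) for enzymes of cholesterol synthesis in pathway order (x axis), in basal and non-basal wells, with open points where the adjusted p was 0.05 or more. Pmvk and Tm7sf2 lie above 1 in both classes, Lss lies near 0, and Lbr is the 1 filled point below 0.

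Among the 12 genes of SREBP processing and feedback, 2 rose in basal wells, 6 rose and 1 fell in non-basal wells, and 1 rose in cycling wells. Of all genes tested, 10.8%, 14.1% and 4.94% rose in these classes, and 13.9% fell in non-basal wells. Srebf2, which encodes the SREBP that acts mainly on sterol genes, was at 44.5, 41.4 and 53.7 CPM in basal wells in BME and at 94.2 and 90.5 CPM in Collagen I. Its log2 fold change was 1.03 ± 0.24 in basal (edgeR adjusted p = 0.00381), 0.93 ± 0.19 in non-basal (adjusted p = 0.00207) and 0.73 ± 0.23 in cycling wells (adjusted p = 0.0538). Without Collagen I replicate 1 or 3 the adjusted p in basal wells was 0.0604 or 0.0583, and without replicate 3 it was 0.0518 in non-basal wells. In thinned wells Srebf2 did not pass in either class (1.28 and 0.85, adjusted p = 0.0742 and 0.106). Srebf1, the SREBP better known for fatty acid genes, rose in non-basal wells (1.35 ± 0.17, adjusted p = 2.63e-05) and cycling wells (0.73 ± 0.19, not without either Collagen I plate, adjusted p = 0.238 and 0.151), and had 0.34 ± 0.19 in basal wells (adjusted p = 0.234). Rnf145, a ligase of the feedback loop, rose by 0.70 in basal and 0.91 in non-basal wells. Without Collagen I replicate 1 Rnf145 did not pass in either class (adjusted p = 0.390 and 0.122), nor without BME replicate 3 (0.0535) or Collagen I replicate 3 (0.0507) in basal wells. There it did not pass by DESeq2 (adjusted p = 0.0734), with no filter (0.0664) or in thinned wells (0.0869). Insig2, the other INSIG gene, had 43.6, 43.9 and 44.7 CPM in basal wells in BME and 57.0 and 66.5 CPM in Collagen I, and its log2 fold change of 0.53 ± 0.26 did not pass (adjusted p = 0.162). Scap, the sterol sensor, had 33.4, 61.0 and 53.0 CPM against 24.8 and 21.3 CPM there, with a log2 fold change of -1.06 ± 0.37 that missed the threshold (adjusted p = 0.0508). Scap did pass as lower with no filter (-1.15, adjusted p = 0.0126), without abundant genes (-1.07, 0.0467) and without BME replicate 1 (-1.24, 0.00603).

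Of 8 genes of sterol uptake and transport tested, 1 rose in basal wells, 2 in non-basal and 1 in cycling wells, against 10.8%, 14.1% and 4.94% of all genes tested. Scarb1, a lipoprotein receptor, rose in basal wells (1.41), and Stard4, a sterol carrier, and Npc2, of lysosomal sterol export, rose in non-basal wells (0.90 and 0.57). None of these 3 passed without Collagen I replicate 1 (adjusted p = 0.114, 0.0553 and 0.0846) or replicate 3 (0.0785, 0.0952 and 0.0522), and Stard4 did not in thinned wells (0.393). A further list held genes of LXR, the receptor for surplus sterol, and of its targets, sterol efflux and esterification. In non-basal wells 1 of 6 tested rose and in cycling wells 0 of 5, against 14.1% and 4.94% of all genes. In basal wells 2 of 5 tested rose, against 10.8% of all genes. They were Mylip, which encodes a ubiquitin ligase (0.95, edgeR adjusted p = 0.0114, not passing without Collagen I replicate 1 or 3, without cycling wells or in thinned wells, with 0.139, 0.0670, 0.106 and 0.161), and Apoe, whose value came from 1 plate (85.2 CPM in Collagen I replicate 3, 0 counts in replicate 1 and 3.61 to 5.31 CPM in BME).

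Of 11 tested genes of the branches that leave the pathway before sterol, 1 rose and 0 fell in basal wells, near the 10.8% of all genes that rose. In non-basal wells 1 rose and 4 fell, against 14.1% and 13.9% of all genes. Without cycling wells 1 rose and 2 fell of 10 tested, against 1141 and 926 of all 9745 genes tested. The gene that rose in both was Fntb, which encodes a subunit of farnesyltransferase (1.26 and 0.99, with adjusted p of 0.182 and 0.180 without Collagen I replicate 1, and of 0.0596 in thinned non-basal wells). Those that fell in non-basal wells included Rabggtb, of Rab prenylation (-0.84), and Pdss1, of ubiquinone side chain synthesis (-2.72, adjusted p = 0.0531 without Collagen I replicate 1). Fatty acid synthesis, the other arm under SREBP, had 6 of 10 genes higher in basal wells, 10 of 10 in non-basal and 6 of 10 in cycling wells. The shares over all genes tested were 10.8%, 14.1% and 4.94%. The desaturase Scd1 rose by 1.85 ± 0.19 in basal and 2.77 ± 0.16 in non-basal wells, and Acss2, which makes acetyl-CoA from acetate, by 1.82 and 2.32.

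The second question was whether the genes differ between classes of wells on the same plate. In basal wells 5 of the 7 were lower than in non-basal wells, against 15.2% of all 10001 genes tested, and none was higher. Insig1 differed most, with a log2 difference of -0.98 ± 0.10 (edgeR adjusted p = 7.05e-06), and was lower in basal wells on 5 of 5 plates, by 0.73, 0.93 and 1.25 log2 units in BME and 0.96 and 0.88 in Collagen I. Idi1 (-0.60 ± 0.09), Lss (-0.52 ± 0.11), Fdps (-0.50 ± 0.10) and Fdft1 (-0.32 ± 0.09) were also lower on 5 of 5 plates, with adjusted p of 0.000306, 0.00234, 0.00258 and 0.0137. Hmgcs1 (-0.18 ± 0.08, adjusted p = 0.117) and Sqle (0.04 ± 0.09, adjusted p = 0.803) did not pass. With wells thinned to 2000 counts, Insig1 and Idi1 still passed (adjusted p = 0.00676 and 0.0146) and the other 3 did not. Of all 3190 genes tested in thinned wells, 181 were lower in basal wells. Fdft1 did not pass without BME replicate 1 or 2 either (adjusted p = 0.0513 and 0.128).

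Cycling wells made up 40.1% of basal and 57.5% of non-basal wells in BME, so the comparison was also made without them. Insig1 (-0.92), Idi1 (-0.65), Lss (-0.51) and Fdps (-0.44) then still passed, and Fdft1 did not (edgeR adjusted p = 0.0580). With cycling wells kept, 6 of the 15 other enzymes were lower and 0 higher in basal wells, Dhcr7 (-0.75) and Mvd (-0.45) among them, and without cycling wells 2 were lower and 0 higher. Of all genes tested, 15.2% were lower with cycling wells kept and 583 of 8801 without them. Mvd did not pass without cycling wells (adjusted p = 0.110) or without BME replicate 2 or 3 (0.0733 and 0.0602). With cycling wells kept, 3 of the 12 SREBP genes were higher and 0 lower in basal wells, against 1397 higher of all 10001 genes tested. They were Scap (0.66 ± 0.14), Srebf1 (0.54 ± 0.16) and Rnf145 (0.34, edgeR adjusted p = 0.0271). Without cycling wells 1 of the 12 was higher, against 766 of all 8801 genes. Without BME replicate 2 Scap did not pass (adjusted p = 0.0523), and Srebf1 did not without any 1 of the BME plates (0.141 to 0.198). Srebf1 did not pass either without cycling wells (0.35, adjusted p = 0.249), by DESeq2 (0.121), with stricter classes (0.0536) or in thinned wells (0.14, 0.696). In this comparison Srebf2 had 0.02 ± 0.11 (adjusted p = 0.923) and Insig2 0.32 ± 0.11 (adjusted p = 0.0510).

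The third question was the relation to the cell cycle. All 7 genes were higher in cycling than in non-cycling wells, against 22.4% of all 10037 genes tested. The largest difference among them was that of Idi1, 1.03 ± 0.09 log2 units (edgeR adjusted p = 1.93e-07), which rose from 95.7, 114 and 101 CPM to 219, 217 and 237 CPM in BME and from 209 and 136 CPM to 365 and 228 CPM in Collagen I. Cycling wells were above non-cycling wells of the same plate on 5 of 5 plates. Hmgcs1 followed with 0.84 ± 0.10 (adjusted p = 3.84e-06), then Fdps and Lss with 0.63 each (adjusted p = 9.15e-06 and 5.78e-05). Insig1 had 0.49 ± 0.09 (adjusted p = 0.000345) and Fdft1 0.47 ± 0.10 (adjusted p = 0.00172), both also on 5 of 5 plates. Sqle was the weakest, with 0.32 ± 0.12 (adjusted p = 0.0412). It was lower by 0.39 log2 units in cycling wells of Collagen I replicate 3 and passed in 4 of 13 alternatives. Among the plates left out, it passed without Collagen I replicate 3 (adjusted p = 0.00445) and not without any other (0.0514 to 0.373). Cycling wells were also less basal. Their summed basal markers stood at 657 to 733 CPM in BME against 1089 to 2321 CPM in non-cycling wells. In Collagen I the sums were 814 and 827 CPM against 1332 and 1947 CPM. The part of this in the differences of the 7 genes was not tested.

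In thinned wells 3 of the 7 passed, Idi1 (0.80, edgeR adjusted p = 0.000640), Fdps (0.80, 7.27e-05) and Hmgcs1 (0.56, 0.00612). Insig1 (0.29, adjusted p = 0.308), Fdft1 (0.33, 0.140), Lss (0.57, 0.0785) and Sqle (0.37, 0.159) did not. Of all 3581 genes tested in thinned wells, 456 were higher in cycling wells. The log2 ratio of the summed genes, cycling over non-cycling, was 0.94, 0.59 and 0.73 on the BME plates and 0.45 and 0.44 on the Collagen I plates. The plates of the matrices did not overlap, and the difference was not tested. Of the 15 other enzymes 13 were higher in cycling wells and 0 lower, against 22.4% and 20.0% of all genes (3 and 0 of 11 tested in thinned wells). Those higher included Lbr (1.63), Acat2 (0.93) and Mvk (0.76). Of the 12 SREBP regulators 0 were higher and 3 lower, the latter near the 20.0% of all genes that were lower, among them Srebf1 (-0.44 ± 0.08) and Insig2 (-0.47 ± 0.13), while Srebf2 (0.24 ± 0.12) and Scap (-0.11 ± 0.13) did not pass.

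**Figure D5:**
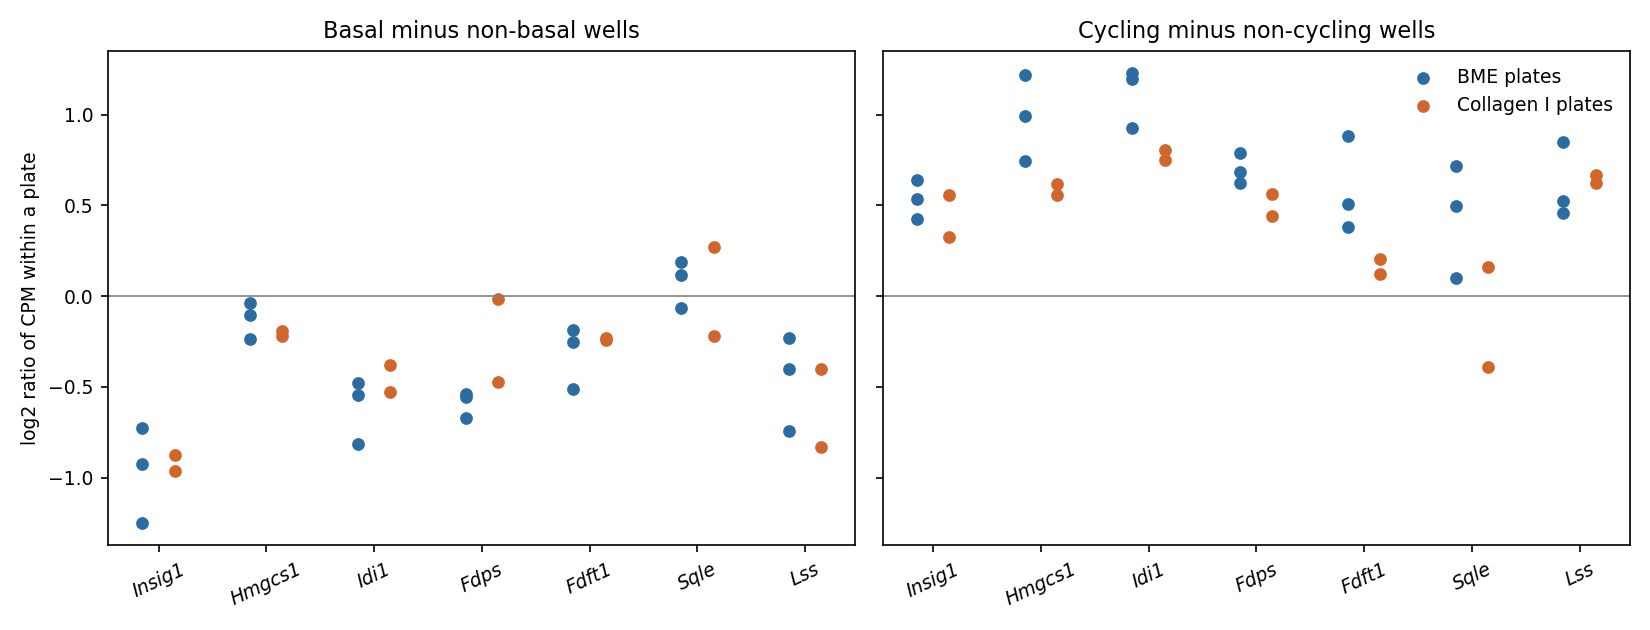
Log2 ratio of CPM between classes of wells of the same plate (y axis) for each of the 7 genes (x axis), basal over non-basal wells on the left and cycling over non-cycling wells on the right, 1 point per plate. Insig1 is below 0 on every plate on the left (-0.73 to -1.25), and on the right 1 point, Sqle in Collagen I replicate 3, is below 0 (-0.39).

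From well to well the genes rose and fell together within each plate. The values below describe correlations across wells of 1 library, which share depth, and carry no test. All 21 pairs of the 7 genes correlated above 0 on every plate, with a mean r of 0.31, 0.31 and 0.28 on the BME plates and 0.24 and 0.18 on the shallower Collagen I plates (251 to 319 wells). Depth was not removed from these pair values, and pairs of other genes were not set beside them. Against the sum of the other 6, the mean r over plates was highest for Idi1 (0.42) and Hmgcs1 (0.39) and lowest for Insig1 (0.30) and Lss (0.28). The summed genes also correlated with the log2 depth of the well (r from 0.32 to 0.46). Between the lower and upper quartile, basal wells held 3.75 to 13.0 counts of the 7 genes per 10000 counts in BME replicate 1 and from 8.12 to 21.0 in Collagen I replicate 1. No count of any of the 7 was found in 7.52% to 12.6% of kept wells in BME and in 7.57% and 15.1% in Collagen I.

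Of 2036 other genes found in at least 20% of the wells of every plate, those most like the summed genes by mean within-plate correlation over the 5 plates included Msmo1 (0.40), Cyp51 (0.36), Acly (0.36), Eif5a (0.36), Sfpq (0.35), Slc25a5 (0.35), Fabp5 (0.35), Tuba1b (0.35) and Hnrnpa3 (0.34). The median over all 2036 was 0.13. Msmo1 and Cyp51 are enzymes of cholesterol synthesis and Acly supplies acetyl-CoA to both lipid pathways. When depth was removed by regression, Msmo1 and Cyp51 had an r of 0.33 and 0.28, and Hnrnpa3 moved to rank 16. Srebf2 had rank 421 (0.20) and Srebf1 rank 1535 (0.08).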

How the data were processed

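The authors mapped SORT-seq reads with BWA to mm10 and deposited, per plate, expected counts of transcripts per gene and well, estimated from distinct UMIs and not normalized between wells (82.9% to 95.1% of nonzero values were whole). The well positions are the same on every plate, and 0 kept wells had identical values on more than 1 plate. Wells holding over 500 counts and under 8000 genes, with under 10% of counts from mitochondrial genes were kept, without ERCC spike-ins. No doublet caller was run. Counts were summed per class and plate, rounded, filtered with filterByExpr and compared with edgeR 4.0.16 (R 4.3.3, TMM, quasi-likelihood test, Benjamini-Hochberg over all genes tested, threshold 0.05). SE was taken from the F statistic, as |log2 fold change| over its square root. Class comparisons had the plate as a block. The fitting code was tested on simulated counts with known changes, and no value given here comes from them. CPM are counts per 1000000 summed counts.

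The study compared cells, and plates were used here as replicates. Members, lists and tests were chosen with earlier results of these data known. All members are named, then up to 4 passing genes of each list by smallest p, and Srebf2, Scap, Insig2 and Srebf1 always. Some genes that this rule takes are not reported here, although the counts over lists include them. Msmo1 is listed as Sc4mol. Alternatives were RLE factors, DESeq2 1.42.0, no filter, deeper wells, thinned wells, stricter classes (10, 1, 20 and 2 per 10000), sums without abundant genes, classes without cycling wells, each plate left out, and the replicate block. Removing depth from the correlations was added after seeing the data.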

Additional observations from a re-analysis of the deposited data

Results flagged for a closer look

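No gene of the 7 was picked out, but 3 other genes of the lipid lists had a Collagen I effect that differed between basal and non-basal wells by the interaction test. They were 1 of 12 SREBP genes, 1 of 10 of fatty acid synthesis and 1 of 15 other cholesterol enzymes tested. The uptake, LXR and branch lists gave 0 of 8, 0 of 5 and 0 of 11. Of all 10862 genes tested, 4.29% passed. For Srebf1 the difference, basal minus non-basal, was -1.07 ± 0.19 log2 units (edgeR adjusted p = 0.000515). Its level was 139, 193 and 169 CPM in basal wells in BME against 191 and 221 CPM in Collagen I, and 82.4, 96.0 and 93.8 CPM against 275 and 177 CPM in non-basal wells. For Scd1 the difference was -0.996 ± 0.18 (adjusted p = 0.000747), from 215, 191 and 163 CPM against 560.5 and 765 CPM in basal wells and 169, 176 and 212 CPM against 1431 and 1070 CPM in non-basal wells. Msmo1, the gene most like the 7 across wells, went the other way, with 0.733 ± 0.16 (adjusted p = 0.00477), from 191, 165 and 153 CPM against 429 and 325 CPM in basal wells and 238, 200.5 and 210 CPM against 276 and 290 CPM in non-basal wells. Without Collagen I replicate 1 none of these passed (adjusted p = 0.233, 0.215 and 0.351). With thinned wells Msmo1 passed (1.06, adjusted p = 0.0158), while Srebf1 and Scd1 did not (adjusted p = 0.133 and 0.0550), and Scd1 did not pass by DESeq2 (adjusted p = 0.0915). The cause was not tested.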

How the results depend on the processing

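Over the 35 values of the 7 genes in 5 comparisons, 425 of 476 recomputed values kept their direction and side of the threshold, 35 lost the call, 5 gained one and 11 changed sign, none of them called. For the other named genes these were 1031 of 1182, 129, 11 and 11. Where only some plates or thinned wells entered, fewer samples or genes carried the test, and otherwise the cause was not tested. With each plate left out, members called ranged from 1 to 5 in basal, 2 to 5 in non-basal and 1 to 4 in cycling wells, with 1 Collagen I plate assumed to vary like the other plates. All genes called then ranged from 818 to 2266 (1967 with all plates), 1337 to 3690 (3106) and 202 to 1612 (975), from 1504 to 3090 (2916) between basal and non-basal wells, and from 200 to 492 (466) for the difference of the Collagen I effect. The log2 ratio of the summed members ranged from 0.55 to 0.89 in basal and 0.66 to 0.96 in cycling wells. In thinned wells 2 members were called between basal and non-basal wells and 3 between cycling and non-cycling wells. All genes called there were 707, 1118 and 334 for Collagen I in basal, non-basal and cycling wells, 441 and 910 (4254 unthinned) between classes and 145 for the difference, which was 256 by DESeq2. The summed members gave 0.94, 0.78 and 1.03, and the share of Insig1 1.74 in non-basal and 1.77 in cycling wells. Without cycling wells 2067 genes were called in non-basal wells and 1349 between classes, the sum gave 0.95 and 0.87, and the share 1.09 and 1.33. Signs changed as follows.

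With plates left out, Collagen I against BME ranged from -0.12 to 0.58, -0.21 to 0.33 and -0.0412 to 0.59 for Idi1 in basal, non-basal and cycling wells, from -0.25 to 0.34 for Lss in non-basal wells, and in cycling wells from -0.25 to 0.35 for Sqle and -0.24 to 0.64 for Insig2. Apoe in basal wells ranged from -6.15 to 4.28. Between basal and non-basal wells Sqle ranged from -0.0010 to 0.0793 and Srebf2 from -0.0564 to 0.11. In thinned wells Insig2 gave -0.12 (Collagen I, basal), Hmgcs1 0.0648 and Srebf2 -0.11 (basal against non-basal), and Srebf2 -0.44 (cycling). With stricter limits Lss gave 0.11 (basal), Insig2 -0.0129 (cycling wells), Srebf2 -0.0179 (between classes) and Scap 0.0011 (cycling against non-cycling). With no filter Lss gave -0.0426 in non-basal wells and Srebf2 -0.0048 between classes.

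Same-numbered plates did not deviate together (r from -0.03 to 0.03 over 10296 to 11076 genes), so replicate numbers were not taken to pair plates. With the replicate block, 3, 4 and 3 members and 1958, 3006 and 1086 genes were called in basal, non-basal and cycling wells, Fdft1 lost its call in basal wells (adjusted p = 0.0732), and Lss gave -0.0497 in non-basal wells. With no replicate block (matrix in place of the plate), 4 and 6 members and 2174 and 3238 genes were called between basal and non-basal and between cycling and non-cycling wells, without Fdft1 (adjusted p = 0.115) and Sqle (0.131).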
